A study of Mus musculus with 6 samples.

Results

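The cholesterol synthesis genes described here are Hmgcs1, Mvd, Idi1, Fdps, Fdft1, Sqle and Lss, which encode enzymes of the route from acetyl-CoA to lanosterol, and Insig1, a regulator of that route. They were chosen by gene symbol and not by a rule on their measured values, although earlier results of these data were known. All 8 have a row among the 32110 genes of each library, and all 8 are among the 15560 genes that averaged 0.5 FPKM or more and were tested. FPKM counts fragments per kilobase of a transcript and divides by the mapped fragments of the library. Their RNA was measured by bulk RNA-seq in CT26 tumors, which grow from 1 colon carcinoma cell line of BALB/c origin. CT26 cells were implanted by intradermal injection into the right flank of male wild type Balb/c mice, and treatment began at a longest tumor diameter near 0.8 cm. In the iRFA group, incomplete radiofrequency ablation left part of the tumor alive: an electrode with its tip at the middle of the long axis was held at 70 °C for 1.5 to 2.0 min, and the residual tumor was taken 3 days later. The other group is labelled as CT26 tumors that received no ablation, and its time of sampling and the age of the mice are not given. Each group holds 3 libraries. The labels do not say that the libraries come from separate mice, so the p-values measure only the spread between these libraries. In bulk RNA, fewer cells of a type and less RNA per cell cannot be told apart.

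Cells build cholesterol from acetyl-CoA through mevalonate, isoprenoid diphosphates, squalene and lanosterol, and the isoprenoids also feed protein prenylation, dolichol and ubiquinone. The genes of this route share the transcription factor SREBP-2. When sterols are plentiful, the INSIG proteins hold SREBP-2 and its escort SCAP in the endoplasmic reticulum, and when sterols are scarce the complex leaves for the Golgi, where proteases release the active factor. Dividing cells and many tumors need this route for new membranes, and macrophages alter it when they take up dead cells or respond to microbes.

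Because these genes share a regulator, the sequences before their start sites were searched for the letters it is known to read. The RefSeq promoter table (GRCm38.p6) holds 5 of the 8 genes: Hmgcs1, Mvd, Idi1, Lss and Insig1. The motifs searched on both strands within the 250 bases before each start were TCACNCCAC and the shorter CACNCCAC inside it, which are forms of the sterol regulatory element, CCAAT, the letters of NF-Y, and GGGCGG, the GC box. TCACNCCAC was found in 1 of the 5 promoters, that of Hmgcs1, and in 1.05% of the 32851 promoters of the table. CACNCCAC was found in 2, those of Hmgcs1 and Insig1, against 5.29% of the table. CCAAT and GGGCGG were each found in 5 of 5, against 33.8% and 32.7% of the table. The matches of Idi1 lie 69 to 10 bases before its RefSeq start, past its GENCODE start. The stretches before both the RefSeq and the GENCODE start are shown for 4 promoters, all but that of Idi1, whose stretch holds none of these motifs. The sequences run 5′ to 3′ on the strand of the gene, with these motifs in capitals. They are Hmgcs1 (chr13:119690101-119690350, plus strand), Mvd (chr8:122443423-122443672, minus strand), Lss (chr10:76531355-76531587, plus strand) and Insig1 (chr5:28071162-28071362, plus strand).
Hmgcs1: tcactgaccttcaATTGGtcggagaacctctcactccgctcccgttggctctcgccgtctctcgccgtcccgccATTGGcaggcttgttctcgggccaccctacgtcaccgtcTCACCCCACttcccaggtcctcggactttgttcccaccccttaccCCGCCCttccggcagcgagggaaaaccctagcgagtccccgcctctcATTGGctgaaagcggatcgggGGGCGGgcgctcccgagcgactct
Mvd: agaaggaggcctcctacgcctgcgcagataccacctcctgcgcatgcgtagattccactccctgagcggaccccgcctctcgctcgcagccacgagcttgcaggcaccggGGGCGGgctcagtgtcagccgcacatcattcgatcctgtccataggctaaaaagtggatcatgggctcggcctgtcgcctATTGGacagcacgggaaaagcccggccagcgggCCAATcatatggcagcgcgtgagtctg
Lss: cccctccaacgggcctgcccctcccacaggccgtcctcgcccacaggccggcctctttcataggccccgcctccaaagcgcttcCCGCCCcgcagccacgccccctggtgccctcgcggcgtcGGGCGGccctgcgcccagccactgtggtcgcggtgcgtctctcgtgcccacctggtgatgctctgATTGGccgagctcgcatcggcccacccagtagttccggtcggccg
Insig1: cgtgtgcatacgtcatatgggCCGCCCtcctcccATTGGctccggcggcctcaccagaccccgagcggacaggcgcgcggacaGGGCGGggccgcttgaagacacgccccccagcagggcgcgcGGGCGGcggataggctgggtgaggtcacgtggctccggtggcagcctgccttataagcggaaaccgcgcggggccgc
In the Hmgcs1 stretch, the 9 letters of the long element lie 137 to 129 bases before the RefSeq start, between ATTGG, which is CCAAT read on the other strand, and a GC box. The match of Insig1 to CACNCCAC lies 9 to 2 bases before its RefSeq start. That place is past its GENCODE start and the end of the stretch shown. These matches are letters in a window, and binding was not measured. By the GENCODE annotation of GRCm38, Hmgcs1 (chr13:119690379-119708260) and Idi1 (chr13:8885501-8892451) lie far apart on 1 chromosome. Each of the others has a chromosome of its own: Mvd chr8:122433601-122443422, Fdps chr3:89093588-89101959, Sqle chr15:59315077-59331192, Lss chr10:76531588-76557138, Insig1 chr5:28071363-28078662 and Fdft1 chromosome 14. All 8 are protein-coding.

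The library labelled untreated replicate 3 stood apart from the other untreated libraries. Over all genes tested, its log2 values had a Pearson correlation of 0.983 to 0.987 with the iRFA libraries and of 0.801 to 0.807 with untreated replicates 1 and 2, which correlated at 0.983 with each other. The FPKM of a library summed to between 313940 and 345320, and the depth is unknown because the files hold no counts. With all 6 libraries, limma called 0 genes higher (0%) and 0 lower (0%) in the iRFA group at an adjusted p under 0.05, and 1236 genes were higher and 1050 lower when an unadjusted p under 0.05 was used. Untreated replicates 1 and 2 also carried epithelial, fibroblast, skin and muscle markers whose sums were lower in the other 4 libraries, with Krt8, a keratin of simple epithelia, at 247 and 234 FPKM against 0.122 or less. In a comparison with these replicates the effect of iRFA and a different origin or make-up of the tumors cannot be told apart, and whether a label was exchanged was not tested. The members and the other genes named by rule are therefore also compared with untreated replicates 1 and 2, and with the library labelled untreated replicate 3 alone, whose spread is then taken from the iRFA group. These comparisons share the iRFA libraries and are not independent.

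The cholesterol synthesis genes were at higher mean FPKM in the iRFA group in 8 of 8 cases, but none passed the test with all 6 libraries. Their median log2 fold change was 0.57, beside 0.02 over all genes tested, where 8070 of 15560 had a positive sign. Hmgcs1 was the single member whose 3 iRFA values all lay above the 3 untreated values, as did 11.4% of the genes tested, with 10.5% in the opposite order. Against untreated replicates 1 and 2, 7 of the 8 members were called higher, the exception being Fdft1, while 33.9% of all genes tested were called higher and 30.3% lower. Against the library labelled untreated replicate 3, 0 members were called, beside 0.00643% of the genes tested called higher (1 gene), and the median log2 fold change of the members was 0.0097. The plot of FPKM by gene shows this arrangement in every member but Fdft1.

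**Figure D1:**
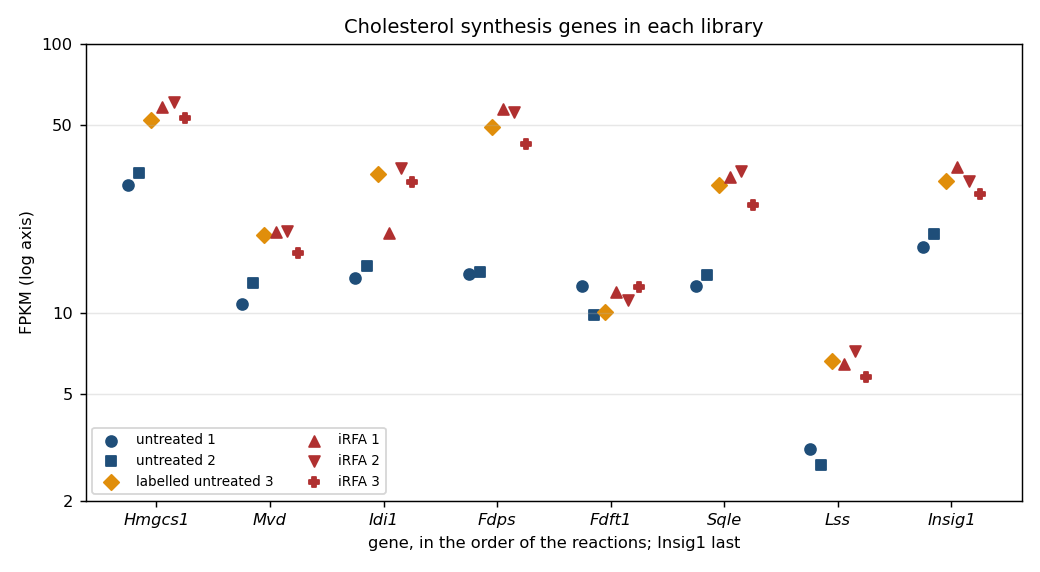
FPKM of the 8 cholesterol synthesis genes in each of the 6 libraries, on a log axis, 1 point per library. In 7 genes, untreated replicates 1 and 2 lie below the other 4 libraries, and in Fdft1 all 6 libraries lie between 9.79 and 12.6 FPKM.

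Hmgcs1 and Mvd act in the mevalonate section. Hmgcs1, the cytosolic synthase that joins acetyl groups into HMG-CoA, was at 29.9, 33.2 and 52.0 FPKM in untreated replicates 1 to 3 and at 58.1, 60.9 and 53.2 FPKM in iRFA replicates 1 to 3. Its highest untreated value, in the library labelled untreated replicate 3, lay just below its lowest iRFA value. The means were 38.4 ± 11.9 FPKM (SD, n = 3) without treatment and 57.4 ± 3.86 FPKM (SD, n = 3) after iRFA. On the log2(FPKM + 1) scale the fold change was 0.61 (SE 0.22, adjusted p = 0.250 from limma). Its unadjusted p of 0.0331 made it the only member under 0.05, where 7.94% of the genes tested were higher. Against untreated replicates 1 and 2 the log2 fold change was 0.84 (SE 0.08, adjusted p = 4.0e-04), and against the library labelled untreated replicate 3 it was 0.14 (95% interval −0.13 to 0.41).

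Mvd, the decarboxylase that turns mevalonate diphosphate into isopentenyl diphosphate, was at 10.8, 12.9 and 19.5 FPKM without treatment and at 20.0, 20.2 and 16.7 FPKM after iRFA. The library labelled untreated replicate 3 lay inside the iRFA range and above iRFA replicate 3. Its means were 14.4 ± 4.52 and 19.0 ± 1.99 FPKM (SD, n = 3 each), with a log2 fold change of 0.41 (SE 0.22, adjusted p = 0.265 from limma). Without the library labelled untreated replicate 3, Mvd was higher after iRFA by 0.63 on the log2 scale (SE 0.12, adjusted p = 0.00505). Against that library alone the sign turned, at −0.040 (95% interval −0.42 to 0.34). The proportion of Mvd to Hmgcs1 varied in a narrow range, with Mvd at 0.361 to 0.390 of the FPKM of Hmgcs1 without treatment and at 0.314 to 0.345 after iRFA. The iRFA ratios all lay below the untreated ratios, and this difference was not tested. The other ratios compared between members overlapped between the groups.

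Idi1 and Fdps act on the isoprenoid diphosphates. Idi1 is the isomerase that makes dimethylallyl diphosphate. It was at 13.4, 15.0 and 32.9 FPKM without treatment and at 19.9, 34.5 and 30.7 FPKM after iRFA. Here iRFA replicate 1 was low and the library labelled untreated replicate 3 was higher than 2 of the 3 iRFA libraries, so the groups overlapped widely. The log2 fold change was 0.53 (SE 0.38, adjusted p = 0.357 from limma), and 0.92 (SE 0.23, adjusted p = 0.0168) against untreated replicates 1 and 2. Its sign also turned against the library labelled untreated replicate 3, at −0.24 (95% interval −1.19 to 0.71).

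Fdps makes farnesyl diphosphate, from which the branches to sterols, dolichol and prenylated proteins part. It was at 13.9, 14.2 and 49.3 FPKM without treatment and at 57.5, 55.6 and 42.5 FPKM after iRFA. Of the 8 members, Fdps differed most between untreated replicates 1 and 2 and the other libraries: its iRFA mean of 51.9 ± 8.21 FPKM (SD, n = 3) was 3.68 times the mean of those untreated replicates, and the library labelled untreated replicate 3 was 3.50 times it. The log2 fold change over all 6 libraries was 1.22 (SE 0.50, adjusted p = 0.250 from limma), with a 95% interval of −0.02 to 2.46. Against untreated replicates 1 and 2 it was 1.80 (SE 0.14, adjusted p = 1.8e-04), and against the library labelled untreated replicate 3 it was 0.06 (95% interval −0.51 to 0.63).

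Fdft1, Sqle and Lss lead from farnesyl diphosphate to lanosterol. Fdft1, squalene synthase, takes the first step committed to sterols and was at 12.6, 9.79 and 10.1 FPKM without treatment and at 11.9, 11.2 and 12.5 FPKM after iRFA. Its highest value was in untreated replicate 1 and the groups overlapped. The log2 fold change was 0.13 (95% interval −0.18 to 0.44, adjusted p = 0.480 from limma) with all libraries and 0.08 (95% interval −0.20 to 0.37, adjusted p = 0.545) against untreated replicates 1 and 2. It was 0.21 (95% interval −0.04 to 0.47) against the library labelled untreated replicate 3.

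Sqle, the squalene epoxidase, was at 12.6, 13.9 and 29.8 FPKM without treatment and at 32.1, 33.7 and 25.2 FPKM after iRFA. Lss, the cyclase that folds oxidosqualene into lanosterol, was at 3.10, 2.71 and 6.65 FPKM without treatment and at 6.47, 7.23 and 5.79 FPKM after iRFA. In both genes untreated replicates 1 and 2 were the lowest libraries and the library labelled untreated replicate 3 lay within the iRFA range. Sqle had a log2 fold change of 0.76 (SE 0.34, adjusted p = 0.250 from limma), which was 1.13 (SE 0.13, adjusted p = 8.8e-04) against untreated replicates 1 and 2. For Lss the values were 0.61 (SE 0.29, adjusted p = 0.250) and 0.94 (SE 0.11, adjusted p = 7.2e-04). Compared with the library labelled untreated replicate 3, Sqle was at 0.02 (95% interval −0.51 to 0.54) and Lss at −0.033 (95% interval −0.43 to 0.36). Since Lss lies at low FPKM, the added 1 FPKM understates its change, and its ratio of mean FPKM to that of untreated replicates 1 and 2 was 2.24.

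Insig1, which holds the SCAP and SREBP complex back and is itself a known SREBP target, was at 17.5, 19.6 and 30.9 FPKM without treatment and at 34.8, 30.8 and 27.8 FPKM after iRFA. The library labelled untreated replicate 3 again lay among the iRFA libraries. The means were 22.7 ± 7.20 and 31.1 ± 3.51 FPKM (SD, n = 3 each), a log2 fold change of 0.47 (SE 0.23, adjusted p = 0.250 from limma). Against untreated replicates 1 and 2 it was 0.71 (SE 0.11, adjusted p = 0.00238), and against the library labelled untreated replicate 3 it was 0.0033 (95% interval −0.39 to 0.40).

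**Figure D2:**
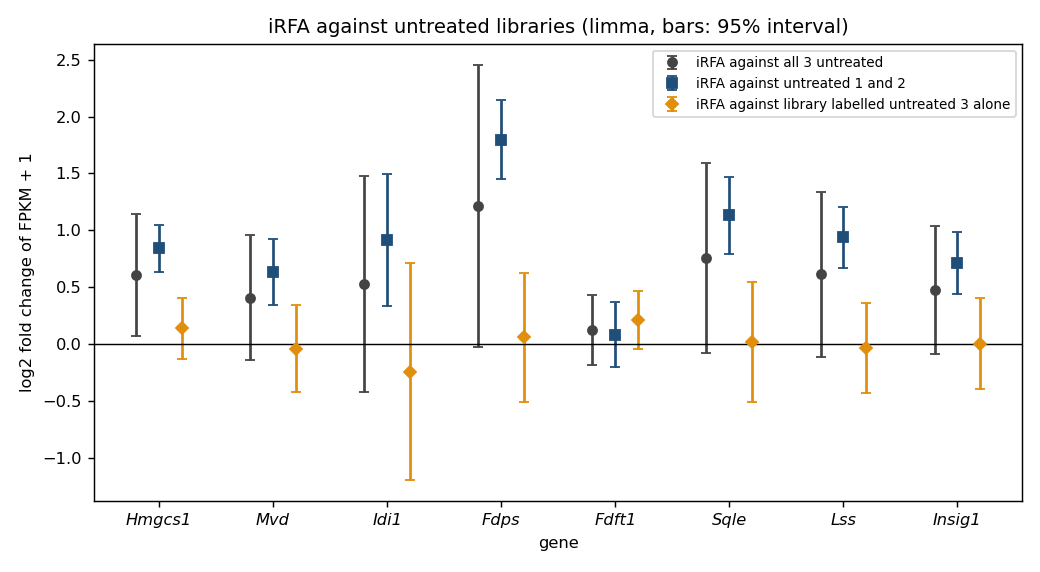
Log2 fold change of FPKM + 1 for each of the 8 genes, iRFA against all 3 untreated libraries, against untreated replicates 1 and 2, and against the library labelled untreated replicate 3 alone; points are limma estimates and bars are 95% intervals. Against all 3 libraries the interval of Hmgcs1 alone lies above 0, against replicates 1 and 2 those of 7 genes do, and against the third library none does.

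The order of the levels differed little between conditions, apart from Fdps. After iRFA, Hmgcs1 and Fdps were highest and overlapped each other, Insig1, Sqle, Idi1 and Mvd followed with each overlapping the next, and Fdft1 and then Lss stood apart below them. In untreated replicates 1 and 2, Hmgcs1 was also first and Lss last, but Fdps stood among the middle genes, overlapping Idi1. The ratio of Fdps to Hmgcs1 FPKM was 0.467 and 0.428 in those libraries, 0.948 in the library labelled untreated replicate 3 and 0.798 to 0.991 after iRFA. Fdft1 was at 1.00 and 0.706 of the FPKM of Sqle in untreated replicates 1 and 2, at 0.332 to 0.494 of it after iRFA and at 0.338 of it in the library labelled untreated replicate 3. Idi1 was at 0.963 and 1.05 of the FPKM of Fdps in untreated replicates 1 and 2, at 0.667 of it in untreated replicate 3 as labelled and at 0.346 to 0.724 of it after iRFA. Sqle was at 0.421 and 0.418 of Hmgcs1 in the first 2 of these libraries and at 0.474 to 0.573 of it in the other 4. Some pairs kept a narrower range. Insig1 was at 0.507 to 0.599 of Hmgcs1, and Lss at 0.195 to 0.247 of Sqle, in all 6 libraries.

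Within the iRFA group, replicate 3 was the lowest library for 6 of the 8 members, beside 31.0% of all genes tested. The exceptions were Idi1, lowest in replicate 1, and Fdft1, lowest in replicate 2. The library labelled untreated replicate 3 lay within the iRFA range in 6 of the 8, beside 45.7% of the genes tested, and below it in Hmgcs1 and Fdft1. It was below all 3 iRFA libraries in 25.7% of the genes tested. Untreated replicates 1 and 2 were both below the other 4 libraries in 7 of the 8, beside 39.5% of the genes tested, and both above them in 0 of the 8, beside 34.6%.

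The other enzymes of the route, described over 12 genes that act before mevalonate, in its phosphorylation or after lanosterol, showed a similar arrangement with exceptions. With all 6 libraries 0 of the 12 were called, 10 had a positive log2 fold change, and the median was 0.30. Against untreated replicates 1 and 2, 7 were called higher and 2 lower, beside 33.9% and 30.3% of all genes tested. The median was 0.46 in that comparison and −0.040 against the library labelled untreated replicate 3. Acat2, the cytosolic thiolase at the entry of the route, was at 20.3, 22.2 and 26.1 FPKM without treatment and at 25.9, 27.8 and 22.4 FPKM after iRFA (log2 fold change 0.15, SE 0.14, adjusted p = 0.462 from limma). Cyp51, which removes a methyl group from lanosterol, was at 22.5, 25.7 and 37.4 FPKM and at 40.2, 42.0 and 33.9 FPKM (log2 fold change 0.45, SE 0.21, adjusted p = 0.250). Both were again lowest in untreated replicates 1 and 2, and within the iRFA group lowest in replicate 3. Their log2 fold changes against untreated replicates 1 and 2 were 0.24 (adjusted p = 0.0876) and 0.66 (adjusted p = 0.00364), and against the library labelled untreated replicate 3 they were −0.046 and 0.043. The 2 genes called lower, Tm7sf2 and Ebp, a sterol reductase and a sterol isomerase, are named after their values were seen. Tm7sf2 was at 5.06, 5.04 and 3.75 FPKM without treatment and at 2.50, 2.22 and 3.91 FPKM after iRFA, and Ebp was at 15.1, 14.8 and 10.4 FPKM and at 12.2, 11.4 and 12.0 FPKM.

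**Figure D3:**
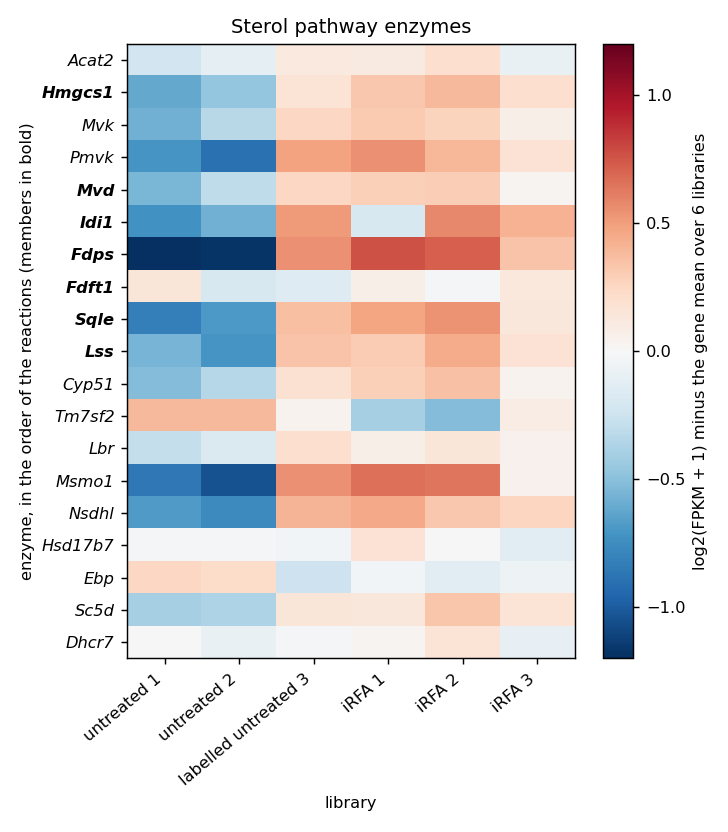
Log2(FPKM + 1) of 19 sterol pathway enzymes in the 6 libraries, each gene centred on its own mean, in the order of the reactions and with the 7 enzymes among the members in bold. Most rows are low (blue) in untreated replicates 1 and 2 and high (red) in the other 4 libraries; Fdft1, Hsd17b7 and Dhcr7 vary little, and Tm7sf2 and Ebp run the other way.

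The gene of the shared transcription factor itself varied little. Srebf2, which encodes SREBP-2 and is named here after its values were seen, was at 32.0, 34.7 and 37.9 FPKM without treatment and at 35.4, 40.3 and 33.4 FPKM after iRFA (log2 fold change 0.06, SE 0.12). Among 8 genes of SREBP-2 control, 0 were called with all libraries (median log2 fold change 0.13). Against untreated replicates 1 and 2, 4 were called higher and 2 lower, beside 33.9% and 30.3% of all genes tested. Insig2, the relative of Insig1 that holds the same complex, had 15.4, 14.9 and 7.72 FPKM without treatment and 7.55, 6.82 and 7.14 FPKM after iRFA. Its 3 iRFA values lay below the 3 untreated values, opposite to Insig1, although the library labelled untreated replicate 3 was close to them (log2 fold change −0.69, SE 0.26, adjusted p = 0.250 from limma). Rnf139, a ubiquitin ligase that binds the INSIG proteins, was at 11.8, 12.1 and 13.5 FPKM and at 14.5, 13.5 and 15.6 FPKM (log2 fold change 0.20, SE 0.10, adjusted p = 0.253). Its iRFA values lay above the untreated values by a narrow margin. Insig2 and Rnf139 were named by rule for lack of overlap, seen in 10.5% of the genes tested with iRFA lower and 11.4% higher. For Insig2 the log2 fold change against untreated replicates 1 and 2 was −0.98 (adjusted p = 1.1e-04), for Rnf139 it was 0.26 (adjusted p = 0.0280), and against the library labelled untreated replicate 3 they were at −0.09 and 0.10.

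Neighbouring lipid pathways were described in the same way, with 0 genes called in any list with all 6 libraries. In the comparison with untreated replicates 1 and 2, 33.9% of all genes tested were called higher and 30.3% lower. Of 11 genes of the isoprenoid branch outside sterols, 5 were called higher and 0 lower there (median log2 fold change 0.11 with all libraries). In this list Icmt, the methyltransferase that finishes prenylated proteins, was without overlap, at 15.6, 17.3 and 18.1 FPKM without treatment and at 18.2, 18.6 and 18.3 FPKM after iRFA (log2 fold change 0.11, SE 0.09, adjusted p = 0.430 from limma), with 0.15 (adjusted p = 0.0835) against untreated replicates 1 and 2 and 0.020 against the library labelled untreated replicate 3. Of 10 fatty acid genes under SREBP-1, 6 were called higher and 0 lower against untreated replicates 1 and 2, beside the same shares of all genes (median 0.28 with all libraries). Acly, which makes the cytosolic acetyl-CoA used by both routes, was at 51.5, 54.7 and 93.2 FPKM without treatment and at 102, 109 and 95.0 FPKM after iRFA. Acaca, which carboxylates it for fatty acid synthesis, was at 4.76, 5.15 and 11.9 FPKM and at 12.6, 13.5 and 11.9 FPKM. In both genes the library labelled untreated replicate 3 lay just under the iRFA libraries, and neither passed the test with all 6 (log2 fold changes 0.66 and 0.83, adjusted p = 0.250 for each). With only untreated replicates 1 and 2 as reference these were 0.93 (adjusted p = 2.2e-04) and 1.20 (adjusted p = 9.3e-05), and against the library labelled untreated replicate 3 they were 0.13 and 0.09. Icmt, Acly and Acaca were named by rule for lack of overlap, which 11.4% of the genes tested showed with iRFA higher.

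The listed genes of sterol efflux and the liver X receptors all had negative log2 fold changes against untreated replicates 1 and 2, but some were near 0. Of the efflux genes, Abca1 was at −0.03 (adjusted p = 0.824 from limma) and Abcg1 at −0.58 (adjusted p = 0.0112). Of 6 genes of sterol efflux and the liver X receptors, 0 were called higher and 3 lower in that comparison, where 30.3% of all genes tested were called lower, and the median log2 fold change was −0.25 with all libraries, −0.37 against untreated replicates 1 and 2, and 0.16 against the library labelled untreated replicate 3. Lpcat3, a phospholipid acyltransferase under the liver X receptors, was at 34.0, 33.2 and 13.5 FPKM without treatment and at 14.3, 14.7 and 16.3 FPKM after iRFA (log2 fold change −0.69, SE 0.36, adjusted p = 0.257 from limma). Nr1h2, which encodes a liver X receptor, was at 29.9, 27.7 and 20.4 FPKM and at 19.2, 21.2 and 20.5 FPKM. Both were highest in untreated replicates 1 and 2 and nearly level in the other 4 libraries. Their log2 fold changes against untreated replicates 1 and 2 were −1.11 (adjusted p = 1.0e-04) and −0.48 (adjusted p = 0.00168), and against the library labelled untreated replicate 3 they were 0.15 and −0.0039.

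Of 8 genes of sterol storage and release, 2 were called higher and 3 lower against untreated replicates 1 and 2, near the shares of 33.9% and 30.3% over all genes tested. The median log2 fold change with all 6 libraries was 0.02, and its sign turned when the libraries were rescaled to equal sums (−0.05). Soat1, which esterifies cholesterol for storage, was at 78.3, 64.5 and 11.9 FPKM without treatment and at 10.9, 10.8 and 11.5 FPKM after iRFA, with no overlap between the groups (log2 fold change −1.75, SE 0.70, adjusted p = 0.250 from limma). Soat2, its paralog, was low throughout, at 1.63, 1.56 and 1.10 FPKM and at 0.989, 0.888 and 0.584 FPKM, also without overlap (log2 fold change −0.42, SE 0.16, adjusted p = 0.250). Soat1 and Soat2 were named by rule for lack of overlap, which 10.5% of the genes tested showed with iRFA lower. For Soat1 the library labelled untreated replicate 3 differed from the iRFA libraries far less than from the other untreated libraries. The log2 fold changes of Soat1 and Soat2 were −2.58 (adjusted p = 1.6e-05) and −0.52 (adjusted p = 0.0134) against untreated replicates 1 and 2, and −0.10 and −0.21 against the library labelled untreated replicate 3. Soat1 is also a marker in the sebaceous gland list given below and makes up most of its sum.

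**Figure D4:**
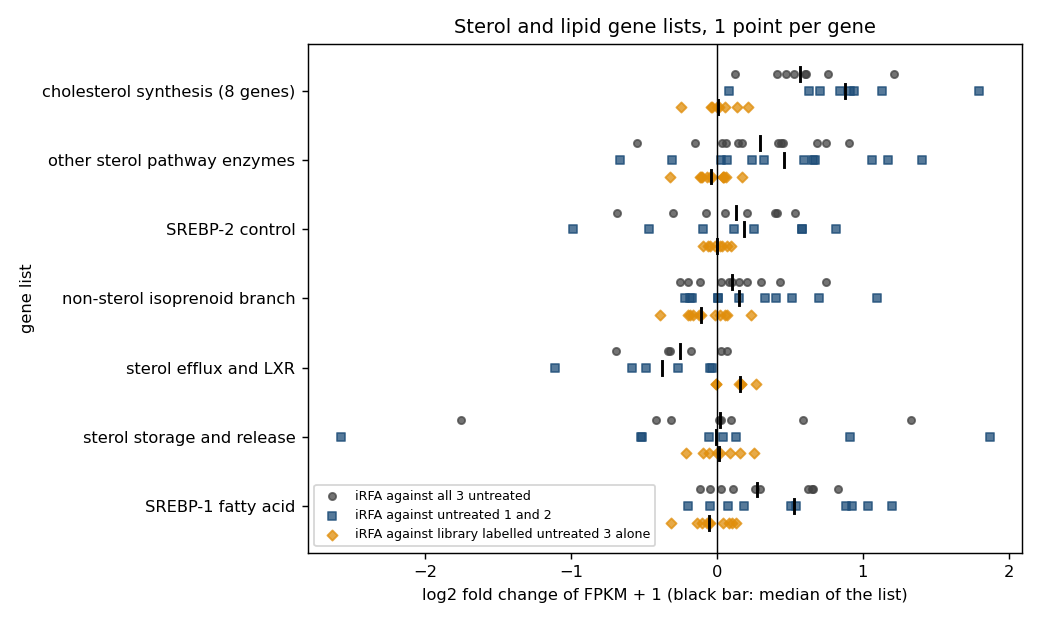
Log2 fold change of FPKM + 1, 1 point per gene, for the 8 members and 6 lists of related genes, iRFA against all 3 untreated libraries, against untreated replicates 1 and 2, and against the library labelled untreated replicate 3 alone; black bars are medians. The medians of the members are 0.57, 0.88 and 0.0097 in that order, and over the 6 related lists the points against the third library lie between −0.39 and 0.27.

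Some members share sequence with other genes, and reads may have been divided between them by the counting. Mvd, Sqle, Lss and Insig1 had 0 other genes at 90% identity or more over at least 200 bases of transcript. Fdps had 6, among them the processed pseudogene Gm3571, which is 98.87% identical over 1062 bases, and Idi1 had 4, among them the processed pseudogene Gm13502, identical over 684 bases. Both pseudogenes were chosen for description after their values were seen. Gm3571 was at 3.39, 3.21 and 17.4 FPKM without treatment and at 17.3, 16.3 and 9.96 FPKM after iRFA. It thus followed Fdps, including the lower value in iRFA replicate 3, and the levels of Fdps are uncertain to that extent. Gm13502 was at 4.43, 3.27 and 7.21 FPKM and at 9.64, 8.67 and 6.92 FPKM, and it was highest in iRFA replicate 1, the library where Idi1 was lowest of its group. Whether reads of Idi1 were assigned to Gm13502 there was not tested.

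Fdft1 (chr14:63145150-63179578, minus strand) overlaps the exons of Ctsb, the gene of the lysosomal protease cathepsin B on the opposite strand, over 774 bases. Ctsb was at 193, 201 and 224 FPKM without treatment and at 246, 222 and 266 FPKM after iRFA, many times the level of Fdft1. The strand of the libraries is not given in the sources used here. Without strand, reads in the shared part cannot be assigned to 1 of the genes, so the level of Fdft1 is uncertain. Fdft1 also has a processed pseudogene, Gm6781, 97.44% identical over 1249 bases, at no more than 0.158 FPKM in any library. Fdps shares 1124 exonic bases with the protein-coding gene Gm43738 on the same strand, which was at no more than 0.518 FPKM and is listed at 0 in 4 of the 6 libraries. Overlaps on the opposite strand cover 557 bases of Hmgcs1, 381 of Lss and 323 of Idi1. Gm48342, antisense to Hmgcs1, had a mean of 0.255 FPKM over the 6 libraries.

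**Figure D5:**
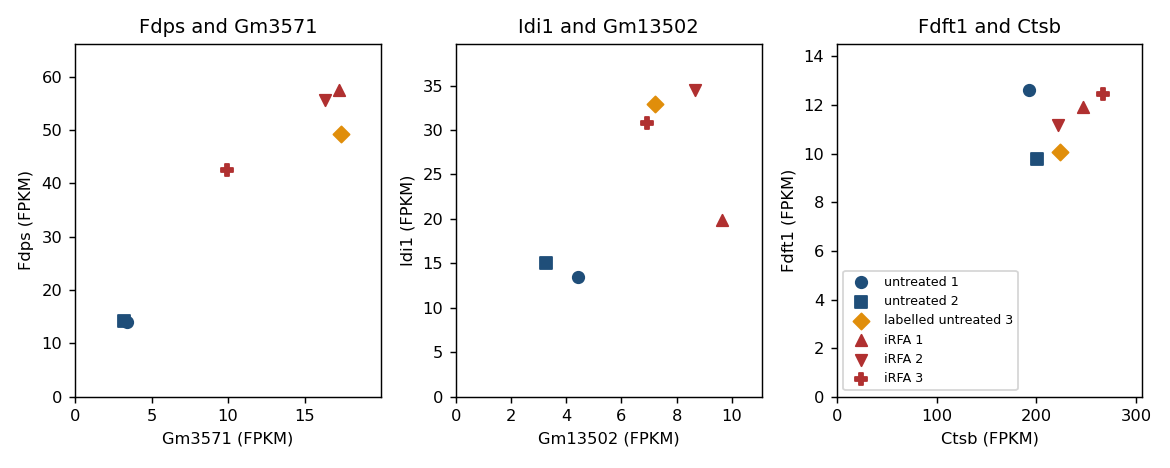
FPKM of Fdps against its near-identical pseudogene Gm3571, of Idi1 against Gm13502 and of Fdft1 against the overlapping gene Ctsb, 1 point per library. Fdps and Gm3571 separate untreated replicates 1 and 2 from the other libraries together, whereas in the middle panel iRFA replicate 1 has the highest Gm13502 and an Idi1 level of 19.9 FPKM.

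The summed markers of proliferation, macrophages, fibroblasts and intestinal epithelium moved with the same division of the libraries. The summed FPKM of 8 proliferation genes was 149, 155 and 400 without treatment and 366 to 416 after iRFA, an arrangement like that of the members. The 8 macrophage markers summed to 1059, 1046 and 2292 FPKM without treatment and to 2513 to 2816 after iRFA. For 8 of the 8 the lowest iRFA value exceeded the highest untreated value, as it did for 11.4% of all genes tested. The sum of the 8 fibroblast markers, carried mainly by the collagens Col1a1, Col1a2 and Col3a1, ran the other way, at 3239, 3785 and 554 FPKM without treatment and 492 to 772 after iRFA. Not all its members did, since Pdgfra had 13.9 and 16.5 FPKM in untreated replicates 1 and 2 and higher values, up to 22.2 FPKM, in the other 4 libraries, and Dcn, at 61.5 to 96.3 FPKM, did not follow the division. The 9 intestinal epithelium markers summed to 725 and 680 FPKM in untreated replicates 1 and 2, to 2.09 in the library labelled untreated replicate 3 and to 2.55 to 3.87 after iRFA. Among them Krt8 and Krt18, keratins of simple epithelia, made up most of the sum together with Krt19, and the library labelled untreated replicate 3 has 0 FPKM for Krt18, Krt19, Krt20 and Cdx2. Cdh1, of the same list, did not follow the division. It was at 1.66, 3.42 and 1.26 FPKM without treatment and at 2.50, 1.74 and 2.36 FPKM after iRFA. Cdx2, a transcription factor that defines intestinal epithelium, was at no more than 0.0231 FPKM in any library, so this defining marker was at or near 0 throughout.

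The summed markers of skin, fat and muscle were highest in untreated replicates 1 and 2, although single markers were not, such as Retn and Cfd, which were highest in iRFA replicate 3 at 0.620 and 15.6 FPKM. The sums in these untreated replicates were 184 and 229 FPKM for 8 skeletal muscle markers, 93.2 and 296 for 8 keratinocyte markers, 55.1 and 55.4 for 8 adipocyte markers and 82.6 and 86.3 for 8 sebaceous gland markers. In the library labelled untreated replicate 3 these sums were 1.27, 3.11, 4.53 and 13.9 FPKM, with Myh4, Actn3, Myh1, Krt5, Krt1, Lor, Dsg3, Lep, Retn, Mc5r, Elovl3 and Krt79 listed at 0. After iRFA they were 32.8 to 55.1, 2.36 to 4.46, 5.91 to 29.1 and 12.7 to 14.1 FPKM. For skeletal muscle and adipocyte markers, the library labelled untreated replicate 3 thus had a lower sum than every iRFA library. Of 6 hepatocyte markers, 2 have rows, and their sum reached 1.97 FPKM at most. The part of any of these cell types, or of proliferation, in the levels of the cholesterol synthesis genes was not tested.

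The genes whose pattern over the 6 libraries lay closest to the median pattern of the members were sought among the 5703 genes that averaged 10 FPKM or more, by the root mean square difference of centred log2(FPKM + 1) values. The closest 5 outside the members were Hspa9 (0.0226), a mitochondrial chaperone, Stip1 (0.0343), a cochaperone, Crkl (0.0361), a signalling adaptor, Thop1 (0.0370), a peptidase, and Piezo1 (0.0376), a mechanosensitive channel. Hspa9 was at 74.8, 78.7 and 137 FPKM without treatment and at 146, 149 and 127 FPKM after iRFA, with the same low replicates as the members. The main division of this pattern, untreated replicates 1 and 2 below the other 4 libraries, was shared by 39.5% of the genes tested. The median pattern was drawn from the members, so their own places are not independent of it. Of the members themselves, Hmgcs1 came nearest at place 60, followed by Insig1 at 344, Mvd at 428 and Sqle at 761. Idi1 was at place 2045, Fdft1 at 3529 and Fdps at 3704 and Lss was not ranked because its mean was under 10 FPKM.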

How the data were processed

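RNA-seq libraries of 3 untreated and 3 iRFA-treated CT26 tumors were used, grouped by their labels. Per the labels, the authors used FastQC, HISAT2 and StringTie on GRCm38, and versions are not given in the sources used here. The deposited FPKM values are scaled by gene length and mapped fragments, so they hold no counts, the depth is unknown and precision was taken from the spread between libraries. GENCODE mouse release 21 (GRCm38) gave symbols and positions, with names for 32060 of 32110 identifiers, and RefSeq gave the promoters.

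Values were compared as log2(FPKM + 1) for the 15560 genes averaging 0.5 FPKM or more. The test was limma 3.58.1 (R 4.3.3), two-sided, with a variance trend and without covariates, and p-values were adjusted by Benjamini-Hochberg over all 15560 genes at 0.05. Fold changes on this scale understate those of low genes. With 3 libraries against 3, an exact permutation test cannot go below 0.1, so none was run. The fit was tried on simulated data in which both groups had the spread of the iRFA libraries. The untreated libraries here spread more widely, so the simulation does not show how the fit behaves on these data. Motifs and likeness are descriptions without a test. Transcripts were compared for shared sequence at 90% identity over 200 bases. Scripts used Python 3.11.15, numpy 2.4.6, pandas 2.3.3 and matplotlib 3.10.9.

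The members, the related lists and the tests were chosen with earlier results of these data known. The genes named are the 8 members and, from each related list, those passing the test or, with none passing, up to 2 without overlap of largest change (else the 2 of highest mean), and the 5 closest in pattern. Marker lists are given as sums with their extreme members. Any other gene was chosen after its values were seen. Alternatives were a pseudocount of 0.1, all genes unfiltered, a filter at a mean of 1 FPKM, rescaling to equal sums, median-of-ratios scaling, quantile normalization, no variance trend, the replicate number as a block, each library left out in turn, and untreated replicates 1 and 2 left out together. Other genes of the route, 1 of them in the list of other sterol enzymes as first drawn up, are not reported here.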

Additional observations from a re-analysis of the deposited data

How the results depend on the processing

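With each library left out in turn, the number of genes called ranged from 0 to 5269 higher and from 0 to 4711 lower, and the number of members called from 0 to 7. The upper ends come from leaving out untreated replicate 3, and leaving out any other single library gave 0 genes. Without untreated replicates 1 and 2, 1 gene was called higher and 0 members, and 2 members were without overlap, beside 4002 of 15560 genes (25.7%). Members without overlap ranged from 1 to 7 with 1 library left out. They were 2 without untreated replicate 1 (1951 of all genes higher), 7 without untreated replicate 3 (6378) and 4 without iRFA replicate 3 (2696). The median log2 fold change of the members was 0.49 to 0.59 in the settings that keep all 6 libraries, 0.39 to 0.88 with 1 library left out and 0.0097 without untreated replicates 1 and 2, where the sign turned for Mvd (−0.040), Idi1 (−0.24) and Lss (−0.033). In that setting the spread of the lone untreated library is taken from the iRFA group. Over all genes the median moved from 0.02 to −0.04 with equal sums and to 0.09 with quantile normalization.

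The deviations of same-numbered libraries from their group means correlated at −0.09, −0.11 and −0.23. Among the untreated libraries these deviations mostly reflect how far the library labelled untreated replicate 3 lay from replicates 1 and 2. They therefore cannot show or exclude a pairing by replicate number. With the replicate block, 0 genes and 0 members were called (646 genes higher and 510 lower at an unadjusted p under 0.05, smallest adjusted p = 0.339 from limma), the median log2 fold change of the members stayed at 0.57 with 1 member without overlap, and no call changed. Without counts, the share of counting error in low values such as those of Lss cannot be given.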

Other observations

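A few other genes around the sterol route were chosen after their values were seen. Msmo1, which removes methyl groups after lanosterol, was at 6.84, 5.87 and 19.8 FPKM without treatment and at 21.5, 21.2 and 13.7 FPKM after iRFA. Pmvk, the kinase before Mvd, was at 8.14, 7.03 and 19.8 FPKM and at 20.8, 18.6 and 15.8 FPKM. Both were lowest in untreated replicates 1 and 2, and in both the library labelled untreated replicate 3 lay within the iRFA range, as for Fdps and Sqle. Their log2 fold changes with all 6 libraries were 0.90 (SE 0.46, adjusted p = 0.254 from limma) and 0.75 (SE 0.38, adjusted p = 0.253).

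Ch25h, a cholesterol hydroxylase that makes an oxysterol and is known as an interferon-induced gene of macrophages, was at 3.46, 4.52 and 14.2 FPKM without treatment and at 17.1, 21.8 and 13.5 FPKM after iRFA. Scarb1, a receptor for high-density lipoprotein, was at 10.1, 10.1 and 20.7 FPKM and at 19.1, 21.6 and 19.0 FPKM. Pdss1, which builds the side chain of ubiquinone, was at 1.51, 1.95 and 4.60 FPKM and at 5.01, 4.46 and 4.99 FPKM. None of these 3 genes passed the test with all 6 libraries (log2 fold changes 1.33, 0.59 and 0.75, adjusted p = 0.250 from limma for each), and each was lowest in untreated replicates 1 and 2.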
